A study of Mus musculus with 16 samples.

Results

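Imprinted genes are transcribed mainly from the maternal or mainly from the paternal copy. The imprinted growth network was represented by 9 such genes, H19, Meg3, Dlk1, Peg3, Mest, Plagl1, Grb10, Ndn and Peg10, out of 34836 gene names on the array. Members were taken as every probe carrying one of these names, which gave 25 distinct probes of 55681, and 23 of them were bright enough to be tested. All 9 genes passed the same brightness filter as the 20317 genes tested, and each gene, represented by its brightest probe, was well above the local background on all 16 arrays.

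The arrays measured RNA of myoblasts derived from satellite cells, the stem cells of adult skeletal muscle, of male C57Bl/6J mice aged 11 to 13 weeks. No genotype or drug differed between groups. Dispersed myoblasts were grown on gelatin without their fibers, whereas myofiber-associated myoblasts were kept on explanted muscle fibers and stripped from them before RNA was extracted, and each culture was sampled at 48 and 72 hr, with 4 arrays per group. A dispersed preparation used 1 mouse and a myofiber-associated preparation 2 mice, replicates were independent preparations, and the array of myofiber-associated replicate 10+11 at 48 hr pooled 2 preparations. The study asked how the transcriptional program between 48 and 72 hr depends on the niche of the satellite cell. Because the source labels name myofibers for all samples, cultures were told apart by the label for growth type.

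Imprinting is set in the germ line by DNA methylation of control regions, and it makes the dose of many genes that govern fetal growth depend on 1 parental copy. Members of the network tend to be transcribed together in growing fetal tissues, are turned down after birth, and are retained in several kinds of adult stem cell. H19, Meg3 and Grb10 are known mainly as maternally expressed genes, and Dlk1, Peg3, Mest, Plagl1, Ndn and Peg10 as paternally expressed genes. The array measured total RNA at each probe, so neither the parental origin of a transcript nor methylation was measured.

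All 5 comparisons were made on normalized log2 probe signal, and a gene was called when its adjusted p, after Benjamini-Hochberg correction over 20317 genes, was below 0.01. The exact permutation test of 4 against 4 arrays has 70 splits and cannot give a p below 0.0286. The 2 cultures were hybridized on 2 slides in 2 scan sessions, and the effects of culture and of slide cannot be told apart. Within each slide the 72-hr arrays lay in columns 1 and 2 and the 48-hr arrays in columns 3 and 4, so time and slide column cannot be told apart either. Between 55.2% and 64.3% of gene spots were well above background on the 16 arrays. The median gene SD within a group was 0.095 and 0.102 in dispersed and 0.216 and 0.180 in myofiber-associated arrays at 48 and 72 hr, respectively. In bulk samples, fewer cells of a type and less RNA per cell cannot be told apart.

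The probes that carry the results for both noncoding RNAs are shown beside probes of the same genes that gave too little signal to be tested. On mm9, H19 was read by 7 probes on the minus strand of chr7, inside the interval chr7:149761435-149764019 that the array gives for this RNA. The brightest of them lay at chr7:149761492-149761551, and the only untested H19 probe lay at chr7:149762417-149762476, 925 bases away in both the transcript and the genome.
H19, A_55_P1961127: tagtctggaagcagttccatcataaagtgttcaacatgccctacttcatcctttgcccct
H19, A_55_P1961125: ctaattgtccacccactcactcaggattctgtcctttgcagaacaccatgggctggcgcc
Meg3 was read on the plus strand of chr12 at chr12:110809678-110809737 by its brightest probe and at chr12:110799558-110799617 by a probe that was not tested.
Meg3, A_51_P455997: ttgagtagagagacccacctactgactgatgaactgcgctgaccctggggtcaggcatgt
Meg3, A_52_P196568: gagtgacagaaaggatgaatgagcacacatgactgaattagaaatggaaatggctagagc
The untested H19 probe was well above background on 11 of 16 arrays and the untested Meg3 probe on 6 of 16, and both stayed under the median log2 signal of 5 that testing required.

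Peg3, Mest and Plagl1 rose from 48 to 72 hr in both cultures, and H19 rose in dispersed cultures. In dispersed cultures 4 of 9 members were called higher and 0 lower, where 13.7% of all genes tested were called (7.37% higher and 6.35% lower). In myofiber-associated cultures 4 of 9 members were again called higher and 0 lower, beside 5.48% of all genes (3.74% higher and 1.75% lower). The median change of the 9 members was 0.44 in dispersed and 1.47 in myofiber-associated cultures on the log2 scale, and that of all genes tested was 0.02 and 0.06. The fitted change was above 0 for 6 of 9 members in dispersed cultures, beside 11165 of 20317 genes tested. It was above 0 for 9 of 9 members in myofiber-associated cultures, beside 11586 of 20317 genes. The 48-hr and 72-hr arrays did not overlap for 5 of 9 members in dispersed cultures, beside 31.2% of all genes, and for 4 of 9 in myofiber-associated cultures, beside 26.3% of all genes.

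**Figure D1:**
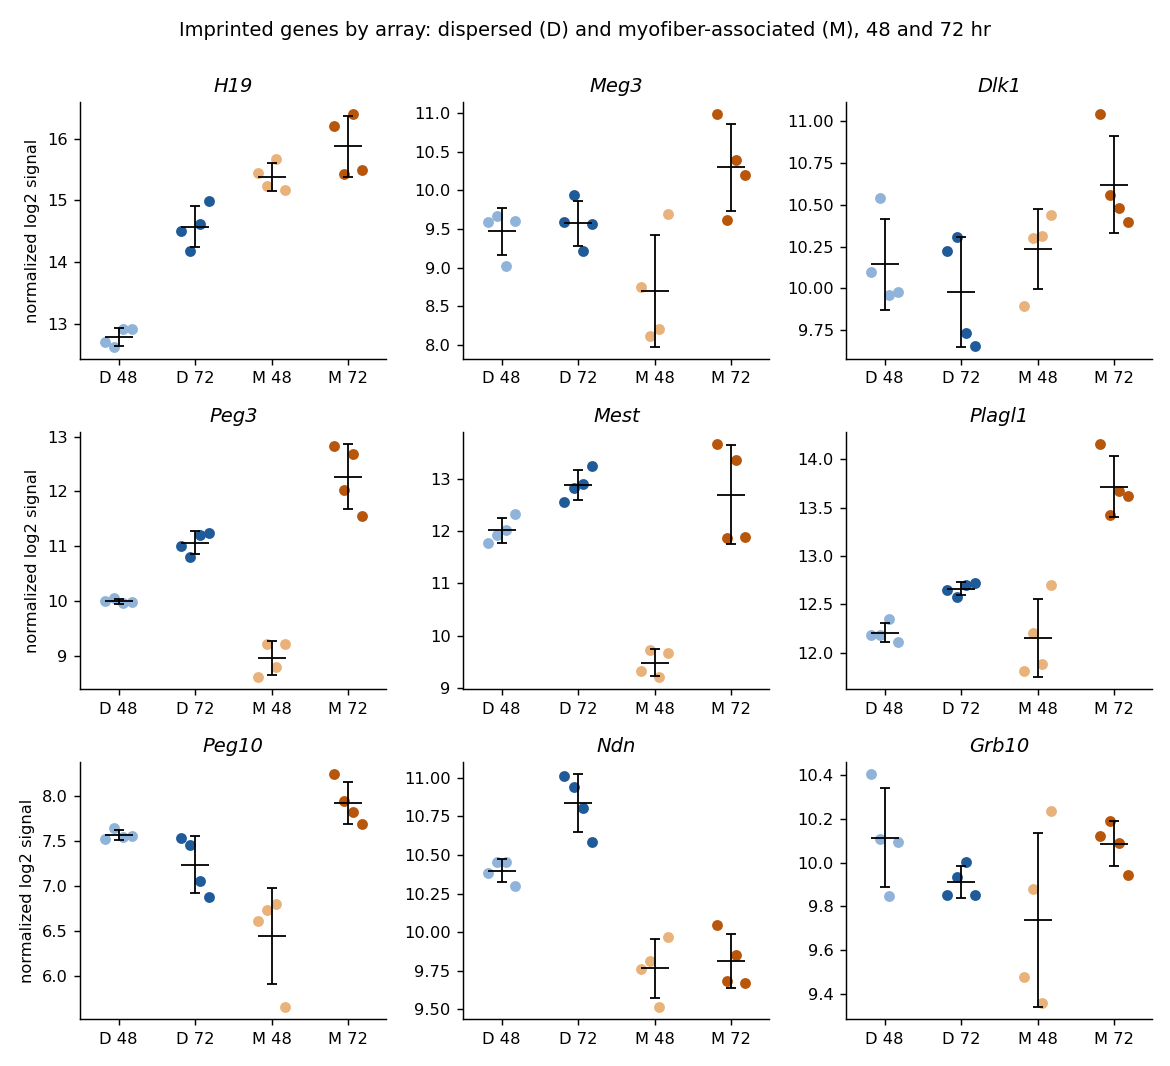
Normalized log2 signal of the brightest probe of each of the 9 genes (vertical axes) on each of 16 arrays, by group of 4 arrays (horizontal axes: dispersed, D, and myofiber-associated, M, at 48 and 72 hr); points are arrays and the bar is the mean with its SD. Peg3 runs from a mean of 8.96 in myofiber-associated cultures at 48 hr to 12.27 at 72 hr, whereas Grb10 stays between means of 9.74 and 10.11.

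**Figure D2:**
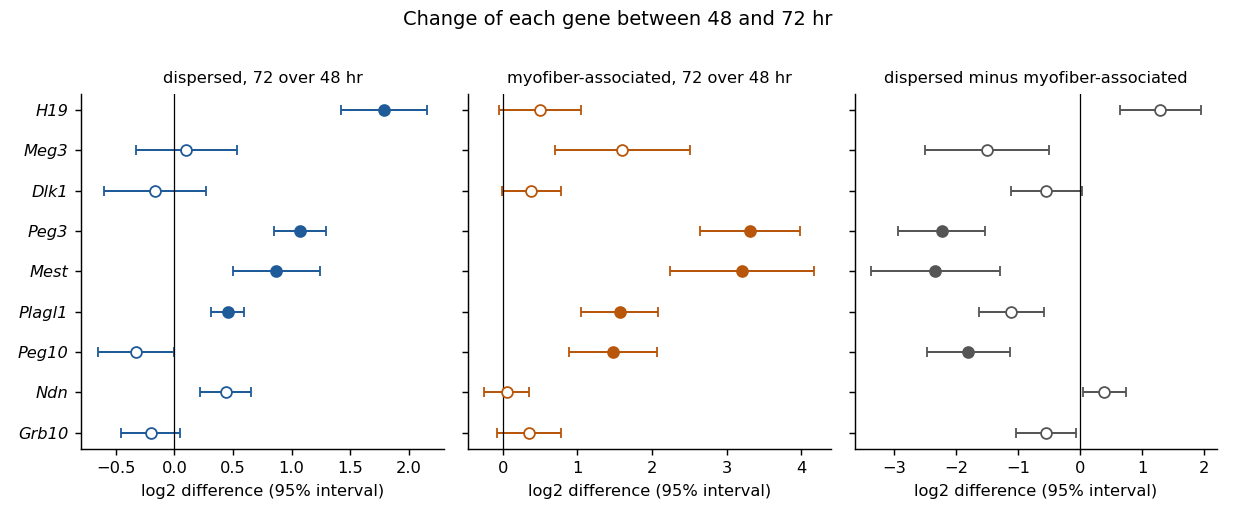
Log2 difference of 72 over 48 hr in dispersed and in myofiber-associated cultures, and the difference between both changes (dispersed minus myofiber-associated), for each of the 9 genes, with 95% intervals. H19 lies to the right in dispersed cultures at 1.79, and Peg3 and Mest lie to the right in myofiber-associated cultures at 3.31 and 3.21.

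Peg3, a zinc-finger protein known from maternal behavior and from stem cells of several tissues, had 4 separate levels by its brightest probe. Its log2 signal was 9.99, 10.04, 9.96 and 9.97 in dispersed replicates 1 to 4 at 48 hr, and 11.01, 10.80, 11.21 and 11.24 in replicates 5 to 8 at 72 hr. In myofiber-associated cultures it was 8.61, 9.21, 8.80 and 9.22 at 48 hr (replicates 7, 8, 9 and 10+11), and 12.83, 12.02, 12.68 and 11.55 at 72 hr (replicates 1 to 4). Values of the other genes are given in the same order of replicates. For this probe of Peg3 no array of a group reached into another group. The order from low to high was myofiber-associated at 48 hr, dispersed at 48 hr, dispersed at 72 hr and myofiber-associated at 72 hr. Peg3 rose 2.11-fold in dispersed cultures (log2 1.08, SE 0.096, adjusted p = 0.000207) and 9.91-fold in myofiber-associated cultures (log2 3.31, SE 0.29, adjusted p = 0.000860). These calls remained whichever array was left out. The second Peg3 probe, which shared no run of more than 5 bases with the first, rose by 1.14 and 2.76 on the log2 scale and was called in both cultures. Its arrays overlapped between cultures at 72 hr.

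Mest, a protein of the alpha/beta hydrolase fold that marks growing mesoderm, had the lowest level of the 4 groups in myofiber-associated cultures at 48 hr. There its log2 signal was 9.32, 9.73, 9.21 and 9.68, and at 72 hr it was 13.66, 11.88, 13.35 and 11.88. In dispersed cultures it was 11.77, 11.92, 12.03 and 12.32 at 48 hr and 12.56, 12.83, 12.89 and 13.24 at 72 hr. The 48-hr and 72-hr arrays did not overlap in either culture, but the 72-hr myofiber-associated arrays spread over both dispersed groups. Mest rose 9.22-fold in myofiber-associated cultures (log2 3.21, SE 0.42, adjusted p = 0.00304) and 1.83-fold in dispersed cultures (log2 0.87, SE 0.16, adjusted p = 0.00620). All 3 probes of Mest, one of them printed at 10 spots, were called in both cultures, with changes of 0.73 to 0.87 in dispersed and 2.80 to 3.23 in myofiber-associated cultures. The call in dispersed cultures was lost without replicate 1, 2 or 3 at 48 hr or replicate 6 or 7 at 72 hr (adjusted p 0.0163, 0.0215, 0.0183, 0.0171 and 0.0195), and that in myofiber-associated cultures without replicate 7 or 9 at 48 hr (adjusted p 0.0137 and 0.0104). One fit of all 16 arrays also lost the dispersed call (adjusted p = 0.135). With no filter on low signal both calls were lost (adjusted p 0.0172 in dispersed and 0.0103 in myofiber-associated cultures).

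Plagl1, a zinc-finger transcription factor that restrains the cell cycle and activates other members of the network, was highest in myofiber-associated cultures at 72 hr. Its log2 signal was 12.19, 12.18, 12.35 and 12.11 in dispersed cultures at 48 hr, and 12.65, 12.58, 12.70 and 12.72 at 72 hr. In myofiber-associated cultures it was 11.82, 12.20, 11.88 and 12.70 at 48 hr, and 14.16, 13.42, 13.67 and 13.62 at 72 hr. Every 72-hr myofiber-associated array was above all other arrays, and the myofiber-associated arrays at 48 hr reached into both dispersed groups. Plagl1 rose 2.96-fold in myofiber-associated cultures (log2 1.57, SE 0.23, adjusted p = 0.00429) and 1.37-fold in dispersed cultures (log2 0.46, SE 0.061, adjusted p = 0.00139). The myofiber-associated call was lost without replicate 1 or 3 at 72 hr or replicate 7, 8 or 9 at 48 hr (adjusted p 0.0135, 0.0139, 0.0166, 0.0137 and 0.0135), and the dispersed call was not lost without any one array. The dispersed call was lost in one fit of all 16 arrays (adjusted p = 0.123). With no filter on low signal the myofiber-associated call was lost (adjusted p = 0.0127).

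The 4 probes of Plagl1 disagreed. The downstream pair, at chr10:12850832-12850891 and chr10:12851280-12851339 on the plus strand, rose by 0.46 and 0.40 in dispersed and by 1.57 and 1.56 in myofiber-associated cultures, and all 4 of these changes were called. The upstream pair, at chr10:12848421-12848480 and chr10:12848851-12848910, had changes of -0.09 and -0.21 in dispersed cultures and of 0.35 and 0.18 in myofiber-associated cultures, and none of the 4 was called (adjusted p 0.0895 to 0.502). When the mean of all 4 probes stood for Plagl1, its change in dispersed cultures was 0.14 and was not called (adjusted p = 0.0328). The downstream probes are not separate in sequence, since both hold the run atctcctaacctttgatgactctgta, which occurs in 2 probes of the array, both named Plagl1.

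**Figure D3:**
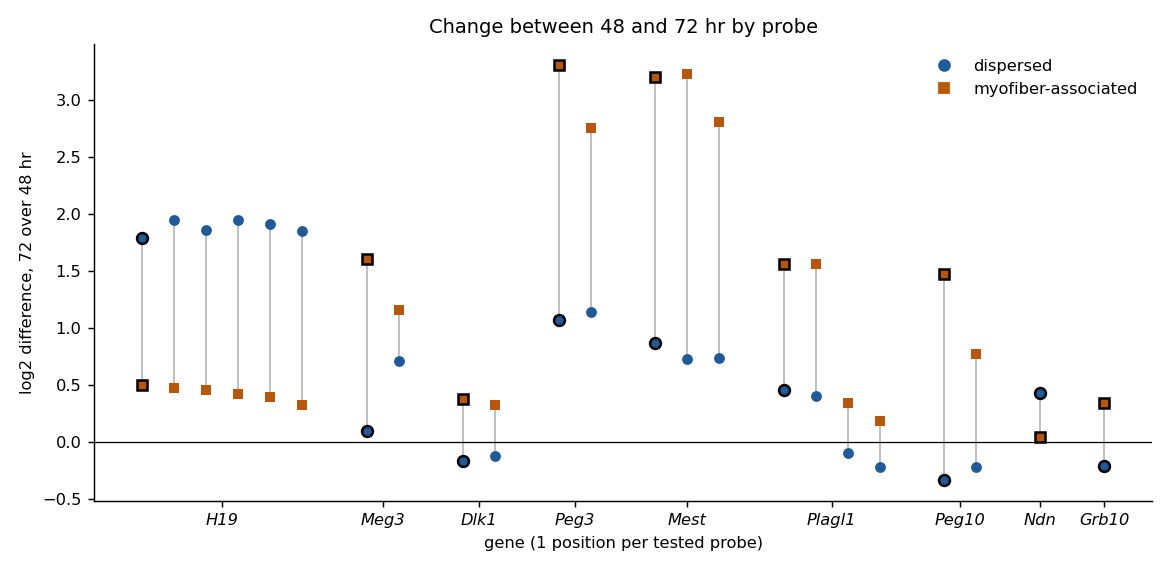
Log2 difference of 72 over 48 hr (vertical axis) for each of the 23 tested probes, grouped by gene along the horizontal axis, in dispersed (circles) and myofiber-associated (squares) cultures; black outlines mark the probe that represents the gene. The 6 H19 probes lie at 1.79 to 1.95 in dispersed and 0.33 to 0.50 in myofiber-associated cultures, and the 4 Plagl1 probes fall into 2 pairs.

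H19, a noncoding RNA transcribed next to Igf2 and a source of a growth-restraining microRNA, was higher in myofiber-associated than in dispersed cultures at both times. Its log2 signal was 12.70, 12.62, 12.91 and 12.92 in dispersed cultures at 48 hr, and 14.51, 14.19, 14.62 and 14.99 at 72 hr. In myofiber-associated cultures it was 15.45, 15.24, 15.67 and 15.17 at 48 hr, and 16.21, 15.43, 16.40 and 15.49 at 72 hr. Both dispersed groups were separate and lay below all myofiber-associated arrays, whereas the myofiber-associated groups overlapped. H19 rose 3.46-fold in dispersed cultures (log2 1.79, SE 0.16, adjusted p = 0.000211), and this call remained whichever array was left out. In myofiber-associated cultures its change of 0.50 (SE 0.24, 95% interval -0.05 to 1.05) was not called (adjusted p = 0.152, exact permutation p = 0.143). All 6 tested probes gave this pattern: 6 of 6 were called higher in dispersed cultures, where 12.4% of 28197 probes tested were called (6.85% higher and 5.59% lower), and 0 of 6 in myofiber-associated cultures, where 5.42% of probes were called (3.73% higher and 1.69% lower). The lowest adjusted p of these 6 probes in myofiber-associated cultures was 0.155.

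Peg10, a gag-like protein derived from a retrotransposon and needed for the placenta, rose in myofiber-associated cultures. The log2 signal was 7.51, 7.64, 7.55 and 7.55 in dispersed cultures at 48 hr, and 7.54, 7.46, 7.06 and 6.88 at 72 hr. On the myofiber-associated arrays it was 6.61, 6.73, 6.79 and 5.65 at 48 hr, and 8.24, 7.94, 7.82 and 7.69 at 72 hr. For this brightest probe, the myofiber-associated groups lay below and above all dispersed arrays, and both dispersed groups overlapped. Peg10 rose 2.78-fold in myofiber-associated cultures (log2 1.47, SE 0.26, adjusted p = 0.00810), and its change in dispersed cultures was -0.33 (SE 0.14, adjusted p = 0.128). The call remained in 1 of the 8 fits that leave out 1 array, the one without replicate 10+11 at 48 hr, and the adjusted p reached 0.0297 without replicate 1 at 72 hr. It was also lost with no filter on low signal (adjusted p = 0.0214), with normexp background correction (adjusted p = 0.0106) and with the slide row as a block (adjusted p = 0.0107). The other Peg10 probe changed by 0.78 in myofiber-associated cultures and was not called (adjusted p = 0.0333).

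Meg3, a noncoding RNA that shares an imprinted cluster with Dlk1, was not called in either culture. Signals on the log2 scale were 9.60, 9.67, 9.02 and 9.60 in dispersed cultures at 48 hr, and 9.59, 9.93, 9.21 and 9.56 at 72 hr. The myofiber-associated signals were 8.75, 8.12, 8.21 and 9.70 at 48 hr, and 10.99, 9.62, 10.39 and 10.19 at 72 hr. A single 48-hr array, replicate 10+11, reached into the 72-hr myofiber-associated group. The myofiber-associated change was 1.60 (SE 0.40, 95% interval 0.70 to 2.51, adjusted p = 0.0256, exact permutation p = 0.0571), and without replicate 10+11 it was 1.94 and called (adjusted p = 0.00582). The dispersed change was 0.10 (SE 0.19, adjusted p = 0.729). The other tested Meg3 probe rose by 0.72 in dispersed cultures, with times that did not overlap (adjusted p = 0.0355, exact permutation p = 0.0286). It rose by 1.16 in myofiber-associated cultures (adjusted p = 0.0401), and neither change was called.

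Ndn, a MAGE-family growth suppressor, was lower in myofiber-associated than in dispersed cultures at both times. Its log2 signal there was 10.39, 10.46, 10.45 and 10.30 at 48 hr, and 11.01, 10.94, 10.81 and 10.59 at 72 hr. Myofiber-associated replicates gave 9.76, 9.81, 9.51 and 9.97 at 48 hr, and 10.05, 9.69, 9.85 and 9.67 at 72 hr. The dispersed groups did not overlap (exact permutation p = 0.0286), and the myofiber-associated groups did. The dispersed change of 0.44 (SE 0.093) missed the call (adjusted p = 0.0112) and passed it without replicate 8 at 72 hr (log2 0.52, adjusted p = 0.00207). The myofiber-associated change was 0.05 (SE 0.13, 95% interval -0.25 to 0.35).

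Dlk1, a membrane protein related to Notch ligands that holds back adipocyte differentiation, showed no called change with time. The log2 signal was 10.10, 10.54, 9.96 and 9.98 in dispersed cultures at 48 hr, and 10.22, 10.30, 9.74 and 9.66 at 72 hr. On the myofiber-associated arrays it was 9.89, 10.30, 10.31 and 10.44 at 48 hr, and 11.04, 10.56, 10.48 and 10.40 at 72 hr. Times overlapped in both cultures, with changes of -0.16 (95% interval -0.60 to 0.27) in dispersed and 0.38 (95% interval -0.01 to 0.78) in myofiber-associated cultures.

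Grb10, an adaptor that damps signaling from insulin and insulin-like growth factor receptors, had overlapping arrays in all 4 groups. Signals on the log2 scale were 10.41, 10.11, 9.85 and 10.09 in dispersed cultures at 48 hr, and 9.85, 9.94, 10.00 and 9.85 at 72 hr. The myofiber-associated signals were 9.48, 9.88, 9.36 and 10.24 at 48 hr, and 10.12, 10.19, 10.09 and 9.94 at 72 hr. Neither its change of -0.20 (95% interval -0.46 to 0.05) in dispersed cultures nor that of 0.35 (95% interval -0.08 to 0.78) in myofiber-associated cultures was called.

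The change with time was then compared between cultures, as the dispersed minus the myofiber-associated change in a fit of all 16 arrays. Among the members 3 of 9 were called, all with the larger rise in myofiber-associated cultures, where 3.45% of all genes were called (1.08% above 0 and 2.37% below 0). These were Mest (-2.34, SE 0.48, adjusted p = 0.00860), Peg3 (-2.23, SE 0.33, adjusted p = 0.00141) and Peg10 (-1.80, SE 0.31, adjusted p = 0.00334). The median difference of the members was -1.11, and that of all genes was -0.07. Plagl1 (-1.11, adjusted p = 0.0120) and Meg3 (-1.50, adjusted p = 0.0444) missed the call with the same sign. The other tested Meg3 probe had a smaller difference, -0.44 (adjusted p = 0.475). The second probes of Peg3 (-1.62, adjusted p = 0.0184) and Peg10 (-0.99, adjusted p = 0.0305) were not called for this difference, and 2 of the 3 Mest probes were. For the representative probes, the call for Peg3 and that for Peg10 remained whichever single array was left out, whereas that for Mest remained in 3 of 16 such fits (adjusted p up to 0.0220). Leaving out the myofiber-associated 48-hr replicate 10+11 brought 6 members past the threshold, with H19 (1.36, adjusted p = 0.00870), Meg3 (-1.84, adjusted p = 0.00494) and Plagl1 (-1.29, adjusted p = 0.00108) added. How many of all genes that fit called was not counted, so this does not set the members apart.

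H19 stood opposite, with a difference of 1.29 (SE 0.31, 95% interval 0.64 to 1.95), the rise in dispersed cultures being the larger. Its brightest probe missed the call (adjusted p = 0.0161), and 4 of its 6 tested probes passed it, where 3.12% of all probes were called (0.986% above 0 and 2.13% below 0), with differences between 1.29 and 1.52. Without replicate 3 of the 72-hr myofiber-associated arrays, H19 passed (1.46, adjusted p = 0.00878). The differences of Grb10 (-0.55), Dlk1 (-0.55) and Ndn (0.39) were not called, with adjusted p from 0.103 to 0.161.

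At 48 hr, by the representative probes, myofiber-associated cultures had more H19 RNA and less Mest, Peg10, Peg3 and Ndn RNA than dispersed cultures. Among the members 1 of 9 was called higher and 4 of 9 lower, beside 19.1% higher and 32.5% lower of all genes (51.6% in either direction), so that a call was common in this comparison. H19 was 6.05-fold higher (log2 2.60, SE 0.22, adjusted p = 3.42e-07), and its 6 tested probes were 2.60 to 2.99 higher, where 49.8% of all probes were called (18.4% higher and 31.4% lower). Mest was 5.75-fold lower (log2 -2.52, SE 0.34, adjusted p = 2.55e-05). Peg10 was 2.17-fold lower (log2 -1.12, adjusted p = 0.000521), Peg3 2.04-fold lower (log2 -1.03, adjusted p = 0.00142) and Ndn 1.55-fold lower (log2 -0.63, adjusted p = 0.000260). The other Peg10 probe was at -0.44 and was not called (adjusted p = 0.0587), with arrays that overlapped between cultures. Meg3 (-0.78, adjusted p = 0.0521) and Grb10 (-0.38, adjusted p = 0.0526) missed the call and passed it without myofiber-associated replicate 10+11 (-1.11, adjusted p = 0.00293, and -0.55, adjusted p = 0.00236, respectively). Plagl1 (-0.06, adjusted p = 0.786) and Dlk1 (0.09, adjusted p = 0.687) were not called. The median difference of the members was -0.63, beside -0.12 for all genes.

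At 72 hr, Peg3 and Plagl1 had joined H19 above the dispersed level, and Ndn was still below it. Among the members 3 of 9 were called higher and 1 of 9 lower, beside 12.9% higher and 18.4% lower of all genes (31.3% in either direction). H19 was 2.47-fold higher (log2 1.31, SE 0.22, adjusted p = 0.000248), Peg3 2.30-fold higher (log2 1.20, SE 0.23, adjusted p = 0.000816) and Plagl1 2.08-fold higher (log2 1.05, SE 0.17, adjusted p = 0.000252). Ndn was 2.03-fold lower (log2 -1.02, SE 0.11, adjusted p = 8.05e-06). All 6 tested H19 probes were called higher at 72 hr as well, by 1.25 to 1.51, where 30.1% of all probes were called (12.3% higher and 17.7% lower). Peg3 was thus called lower at 48 hr and higher at 72 hr by its representative probe, whereas its other probe was called at neither time (-0.87, adjusted p = 0.0141, and 0.75, adjusted p = 0.0397, with arrays that overlapped between cultures at 72 hr). Peg10 (0.69, adjusted p = 0.0196) and Dlk1 (0.64, adjusted p = 0.0130) missed the call although their arrays did not overlap between cultures. Peg10 passed it without myofiber-associated 48-hr replicate 10+11 (0.69, adjusted p = 0.00125). Dlk1 passed it without dispersed 72-hr replicate 6 (0.75, adjusted p = 0.00906) or dispersed 48-hr replicate 2 (0.64, adjusted p = 0.00991). Meg3 (0.72), Mest (-0.19) and Grb10 (0.18) were not called, and Mest was at 0.08 without myofiber-associated replicate 2 and also without replicate 4. The other tested Meg3 probe was at -0.17 (adjusted p = 0.657).

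The 72-hr myofiber-associated arrays with less RNA of muscle fiber genes had more RNA of 6 of the 9 members. How many of all genes split these arrays in the same way was not counted, so this does not set the members apart. The mean log2 signal of 14 adult muscle fiber genes was 15.89 to 16.56 in myofiber-associated cultures at 48 hr, and at 72 hr it was 13.66 and 13.47 in replicates 1 and 3 but 15.04 and 15.61 in replicates 2 and 4. It was 9.86 to 11.00 in dispersed cultures at 48 hr and 9.23 to 9.57 at 72 hr. Replicates 1 and 3, on slide column 1, had the higher values of H19, Mest, Plagl1, Peg3, Meg3 and Ndn among the 72-hr myofiber-associated arrays, and replicates 2 and 4 were on slide column 2. Over all genes, calls with time in myofiber-associated cultures went from 1114 to 75 without column 1 and to 1955 without column 2. Of the 14 fiber genes, 14 were called higher in myofiber-associated than in dispersed cultures at 48 hr, beside 19.1% of all genes. At 72 hr 13 were called higher, beside 12.9% of all genes, and all 14 had a fitted difference above 0. With time, all 14 had a fitted change below 0 in myofiber-associated cultures, with a median of -1.73. Times did not overlap for 11, beside 26.3% of all genes. The adjusted p was under 0.05 for 6, beside 1855 of 20317 genes lower at that threshold. Of these 6, 1 passed 0.01, beside 1.75% of all genes called lower. In dispersed cultures 3 fiber genes had a fitted change above 0 and 11 below 0, with a median of -1.32. Of these, 1 was called higher and 6 lower, beside 7.37% and 6.35% of all genes.

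In fits added after seeing the data, column 1 or column 2 of these arrays was left out. Peg3 kept its rise in myofiber-associated cultures, at 2.82 without column 1 (adjusted p = 0.00610) and at 3.79 without column 2 (adjusted p = 0.000830), and so did Mest, at 2.39 (adjusted p = 0.00453) and 4.02 (adjusted p = 0.000727). Plagl1 changed by 1.37 without column 1 (adjusted p = 0.0461) and by 1.77 without column 2 (adjusted p = 0.00758), and Peg10 by 1.37 (adjusted p = 0.0899) and 1.59 (adjusted p = 0.0200). H19 changed by 0.08 without column 1 and by 0.92 without column 2 (adjusted p = 0.0125), and Meg3 by 1.21 (adjusted p = 0.224) and 1.999 (adjusted p = 0.0239). The difference between cultures lost its call for Peg10 without column 1 (-1.71, adjusted p = 0.0203) and kept it without column 2 (-1.92, adjusted p = 0.00235). It kept its call for Peg3 (-1.75 without column 1 and -2.72 without column 2) and for Mest (-1.52 and -3.15). For H19 it was 1.71 and called without column 1 (adjusted p = 0.00382) and 0.87 without column 2 (adjusted p = 0.0187), and for Plagl1 it was -0.91 (adjusted p = 0.0575) and, called, -1.31 (adjusted p = 0.00329). At 72 hr, Mest was below the dispersed level without column 1 (log2 -1.001, adjusted p = 0.00144) and above it without column 2 (log2 0.63, adjusted p = 0.0323), so its position between cultures at 72 hr depended on the columns. The part of fiber RNA and of the slide column in these results was not tested further.

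**Figure D4:**
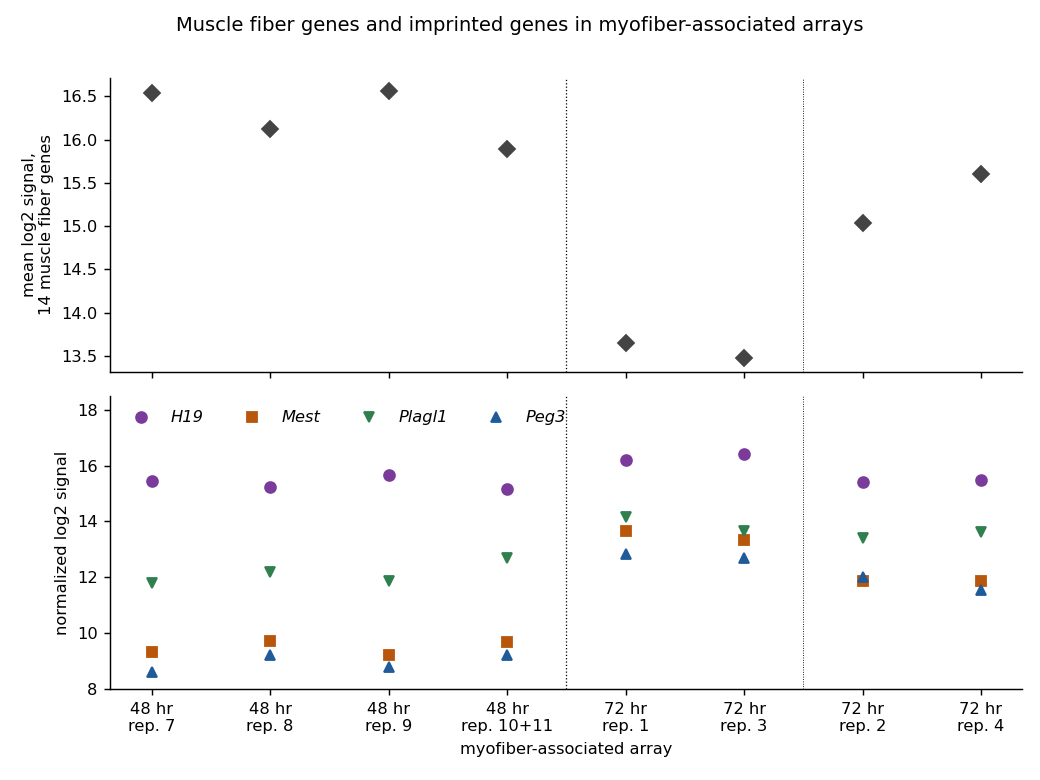
Upper panel, mean normalized log2 signal of 14 muscle fiber genes, and lower panel, normalized log2 signal of H19, Mest, Plagl1 and Peg3, on each of the 8 myofiber-associated arrays (horizontal axis, with the 72-hr arrays ordered by slide column). Replicates 1 and 3 have the lowest fiber means, 13.66 and 13.47, and the highest Mest signals, 13.66 and 13.35.

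Markers of other cells also moved with time, and the counts of higher and lower markers are of called genes. The mean log2 signal of 10 myoblast markers went from 12.02 at 48 hr to 12.60 at 72 hr in dispersed cultures and from 12.94 to 13.40 on the fibers. Called higher with time were 4 of 10 in dispersed and 3 of 10 in myofiber-associated cultures, with median changes of 0.30 and 0.50. Myog alone went from 5.72 to 6.67 up to 9.60 to 10.40 in dispersed cultures, and was at 13.98 to 15.00 on the fibers at 48 hr. Between cultures at 48 hr, 3 of 10 markers were called higher and 5 lower on the fibers. Their median difference was -0.41, opposite in sign to that of the means. Of the endothelial markers 14 of 15 were called lower in dispersed and 10 of 15 in myofiber-associated cultures. Their means went from 12.35 to 10.96 and from 9.92 to 7.98, respectively. Markers of fibroblasts and fibro-adipogenic progenitors had 2 of 11 higher and 1 lower in dispersed and 1 higher and 4 lower in myofiber-associated cultures. Leukocyte markers had 1 of 10 higher and 4 lower in dispersed and 1 higher and 0 lower in myofiber-associated cultures. Pericyte and smooth muscle markers had 0 of 10 higher and 3 lower, and 1 higher and 1 lower, respectively. Schwann cell markers had 5 of 7 lower in dispersed and 0 of 7 called in myofiber-associated cultures. Of all genes, 7.37% were called higher and 6.35% lower with time in dispersed cultures, and 3.74% and 1.75% in myofiber-associated cultures. The part of these cells in the members' changes was not tested.

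A list of 30 further imprinted genes was examined in the same fits, and 24 of them were tested. In dispersed cultures 1 of 24 was called higher and 1 lower, beside 7.37% and 6.35% of all genes. In myofiber-associated cultures 3 were called higher and 0 lower, beside 3.74% and 1.75% of all genes. Their median change was 0.19 and 0.29, respectively. In each culture 17 of 24 were above 0, beside 11165 of 20317 genes tested in dispersed and 11586 of 20317 in myofiber-associated cultures. In the difference between cultures 0 were above 0 and 1 below 0 among the called, beside 1.08% and 2.37% of all genes. At 48 hr 4 were called higher and 5 lower in myofiber-associated cultures, beside 19.1% and 32.5% of all genes. At 72 hr 1 was called higher and 2 lower, beside 12.9% and 18.4% of all genes.

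Zim1, a zinc-finger gene next to Peg3, was the gene of this list called in both cultures. The log2 signal was 5.47, 5.24, 5.57 and 5.73 in dispersed cultures at 48 hr and 7.12, 7.03, 7.23 and 7.76 at 72 hr. Myofiber-associated replicates gave 5.27, 6.00, 5.65 and 6.25 at 48 hr and 8.35, 7.33, 8.26 and 7.43 at 72 hr. The times did not overlap in either culture, and the rise was 1.78 (adjusted p = 0.000278) in dispersed and 2.05 (adjusted p = 0.00455) in myofiber-associated cultures. Usp29, which shares the promoter region of Peg3, was too dim to be tested. It was well above background on 3 of 4 dispersed and 4 of 4 myofiber-associated arrays at 72 hr and not well above background at 48 hr, which gives a rise of at least 1.28-fold and at least 2.89-fold, the brighter group being set against the lowest signal well above background on the dimmer arrays.

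Gatm, the first enzyme of creatine synthesis, rose in myofiber-associated cultures (1.50, adjusted p = 0.00678), and its change differed from that in dispersed cultures (-1.29, adjusted p = 0.00881). Peg12, a gene near Ndn, rose by 0.96 in myofiber-associated cultures (adjusted p = 0.00816). Gab1, a docking protein of growth factor receptors, fell by 0.57 in dispersed cultures (adjusted p = 0.00322). In myofiber-associated cultures at 48 hr, Slc38a4 (1.07), Asb4 (1.06), Snrpn (1.04) and Magel2 (0.74) were higher and Gatm (-1.19), Sgce (-0.89), Peg12 (-0.82) and Gab1 (-0.76) lower than in dispersed cultures. At 72 hr, Airn (1.30) was higher and Cdkn1c (-1.17) and Gab1 (-0.39) lower.

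Igf2, the fetal growth factor encoded next to H19, was near the brightness limit and was not called. Signals on the log2 scale were 5.26, 5.86, 5.63 and 5.67 in dispersed cultures at 48 hr and 5.20, 5.38, 4.96 and 4.87 at 72 hr. On the myofiber-associated arrays it was 4.64, 5.25, 5.23 and 4.05 at 48 hr and 6.47, 5.21, 6.35 and 5.21 at 72 hr. Its change was -0.50 (adjusted p = 0.0421) in dispersed and 1.02 (adjusted p = 0.0857) in myofiber-associated cultures, and times overlapped in both. H19 was called in dispersed cultures with a positive change, so the pair had fitted changes of opposite sign there. The receptor that clears this factor, Igf2r, changed by 0.05 and -0.10. Cdkn1c, an imprinted inhibitor of cyclin-dependent kinases, changed by -0.01 in dispersed and -0.73 in myofiber-associated cultures (adjusted p = 0.0114). Dcn, a matrix proteoglycan, changed by -0.39 and -1.44 (adjusted p = 0.0261), Sgce by 0.18 and 0.63 (adjusted p = 0.0297) and Gnas by 0.09 and 0.20, none of them called.

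Genes beside the members on the chromosome, 25 of 32 tested, had 3 called higher and 2 lower in dispersed cultures, beside 7.37% and 6.35% of all genes. In myofiber-associated cultures 2 were called higher and 1 lower, beside 3.74% and 1.75% of all genes. Apart from Zim1, the higher genes were Lsp1 (0.93 in dispersed and 1.48 in myofiber-associated cultures) and Cep41 (0.25 in dispersed), and the lower genes were the fast troponin gene Tnni2 (-1.53) and Phactr2 (-0.77) in dispersed and Tfpi2 (-1.58) in myofiber-associated cultures. Tfpi2 was also the neighbor whose change differed between cultures (2.66, adjusted p = 0.000976). The median change of the neighbors was 0.15 and 0.00, respectively.

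Within cultures, Peg3, Mest and Plagl1 had the most similar profiles among the 9 genes. Over 16 arrays, after the mean of each culture was subtracted, Pearson's r was 0.979 for Peg3 and Mest, 0.961 for Peg3 and Plagl1, and 0.946 for Mest and Plagl1. It was 0.862 for Meg3 and Plagl1, 0.548 for H19 and Peg3 and 0.635 for H19 and Ndn, and the lowest pair was H19 and Grb10 at -0.243. The arrays share their times and slides, so these values describe the profiles and were not tested. Genes outside the members were ranked by the same measure. Names of clones, accessions and predicted genes were passed over, as were all names that start with Chr, so a closer gene may be unlisted. Those most like Peg3 were Scrn1 (0.995), Rhod (0.992) and Unc119 (0.992), those most like Mest were Fam178a (0.995), Sytl2 (0.989) and Asap3 (0.988), and those most like Plagl1 were Chd3 (0.984), Maged1 (0.982) and Dpysl3 (0.982). H19 was most like Tmem63b (0.953), Zfc3h1 (0.944) and Spg7 (0.931), and Meg3 most like Hdgfrp2 (0.943), Fkbp7 (0.937) and Kif5a (0.931). Peg10 was most like Zkscan3 (0.919), Cep290 (0.910) and Ccdc167 (0.908). Grb10 was most like Gnb2 (0.916), Mcm7 (0.915) and Rnaseh2a (0.912), Ndn most like Fmn1 (0.901), Raet1b (0.899) and Fam107b (0.899), and Dlk1 most like Nek1 (0.862), Apom (0.836) and Cpxm1 (0.827).

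The start regions of Peg3, Mest and Plagl1, the members called higher in both cultures, are printed to show their content of CG, the dinucleotide at which DNA is methylated. RefSeq sequences on GRCm38.p6 from 250 bases before to 50 after each start were matched by symbol for 7 of 9 members, with 11 windows in all. The windows shown are chr7:6730370-6730669 on the minus strand for Peg3, chr6:30737800-30738099 on the plus strand for Mest and chr10:13090582-13090881 on the plus strand for Plagl1, with CG in capitals.
Peg3: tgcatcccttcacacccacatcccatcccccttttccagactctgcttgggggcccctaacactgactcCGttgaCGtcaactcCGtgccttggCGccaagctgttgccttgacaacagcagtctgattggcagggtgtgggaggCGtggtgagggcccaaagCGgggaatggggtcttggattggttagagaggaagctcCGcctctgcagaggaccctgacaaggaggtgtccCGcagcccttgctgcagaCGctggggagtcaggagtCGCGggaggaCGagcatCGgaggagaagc
Mest: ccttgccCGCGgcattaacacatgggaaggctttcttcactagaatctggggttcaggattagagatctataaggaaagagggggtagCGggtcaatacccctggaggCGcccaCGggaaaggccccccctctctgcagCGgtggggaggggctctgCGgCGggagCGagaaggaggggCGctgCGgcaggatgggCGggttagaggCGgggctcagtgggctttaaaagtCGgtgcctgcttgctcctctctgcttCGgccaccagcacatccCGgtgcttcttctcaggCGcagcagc
Plagl1: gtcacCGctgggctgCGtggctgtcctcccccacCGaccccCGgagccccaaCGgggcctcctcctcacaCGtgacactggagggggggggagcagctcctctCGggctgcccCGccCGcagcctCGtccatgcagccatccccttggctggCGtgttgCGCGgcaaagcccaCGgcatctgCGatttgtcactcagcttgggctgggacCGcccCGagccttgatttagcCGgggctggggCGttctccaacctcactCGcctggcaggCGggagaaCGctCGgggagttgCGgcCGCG
The Peg3 window holds 13 CG and is 61.3% G or C, that of Mest 17 CG and 62.7%, and that of Plagl1 26 CG and 70.7%, beside medians of 7 CG and 52.7% over 32851 promoters. Fewer CG than in these windows were held by 62.1%, 68.6% and 83.1% of all promoters, respectively. The E-box CANNTG, searched on both strands, occurs at 0 places in the Peg3 window, 1 in the Mest window and 2 in the Plagl1 window, and 72.3% of all promoters hold it. The p53 half-site motif was in none of the 11 windows, and 8.36% of all promoters hold it. Another Mest window, chr6:30733256-30733555, holds 8 CG, is 59.3% G or C and has the E-box at 2 places, and a further one, chr6:30737803-30738102, nearly coincides with that shown. These matches describe the letters of the windows.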

How the data were processed

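RNA of 16 samples was hybridized to one-color Agilent arrays, and the deposited scanner files hold, per spot, the processed signal as an intensity that Feature Extraction had corrected for background (probe positions on mm9). The table of log2 values deposited by the authors was used only as an alternative. Following the study's methods, log2 intensities were fitted by loess (span 0.3 and 4 iterations) against the average of the same culture's 48-hr arrays and then set to common quantiles over 16 arrays. Outlier spots were left out, identical probes were averaged, the brightest probe stood for a gene, and a median log2 signal of at least 5 was required. Groups were compared with limma 3.58.1 in R 4.3.3, on 8 arrays for changes with time and on 16 arrays otherwise, with Benjamini-Hochberg adjustment and a threshold of 0.01. The samr test of the study was not run. Scripts were tested on simulated data. Alternatives were normexp background correction (offset 50), 75th percentile scaling, other filters, the mean of all probes, the slide row as a block, a single fit of 16 arrays and each array left out.

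The members and lists were chosen with earlier results of these data known. The text names all members, other listed genes past the threshold (at most 4 per direction, list and comparison) and fixed partner genes. It also names the 3 genes most like each member among the names that were not passed over. p-values measure the spread between the 4 arrays of a group, which mixes preparation with place on the slide, and the number of arrays limits the precision. The sequence and position of 1 Meg3 probe are not reported here.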

Additional observations from a re-analysis of the deposited data

Results flagged for a closer look

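In a group of 4 arrays, a value stood apart from the others (its gap to the nearest array, divided by the range of the group, exceeded Dixon's 95% critical value) for 2 of the 36 sets of values formed by 9 genes and 4 groups, and chance alone gives such a gap in about 5% of sets. Meg3 in dispersed replicate 3 at 48 hr was at 9.02 on the log2 scale, the lowest of its group, with a ratio of 0.891. Peg10 in myofiber-associated replicate 10+11 at 48 hr, the array that pools 2 preparations, was at 5.65, with a ratio of 0.838.

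The change from 48 to 72 hr differed between cultures, dispersed minus myofiber-associated, for Mest (-2.34), Peg3 (-2.23) and Peg10 (-1.80) by limma's test of the difference itself.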

How the results depend on the processing

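No paired analysis was possible because the 48-hr and 72-hr samples of a culture share no replicate number. With each array left out in turn, the count of called members ranged from 3 to 5 in dispersed cultures (4 with all arrays), 1 to 5 in myofiber-associated cultures (4), 2 to 6 for the difference between cultures (3), 5 to 7 between cultures at 48 hr (5) and 4 to 5 at 72 hr (4). For the other imprinted genes these ranges were 1 to 3 (2), 0 to 7 (3), 0 to 4 (1), 7 to 10 (9) and 1 to 7 (3). How many of all genes each of these fits called was not counted, so the ranges do not set either list apart. Among the members, one fit of all 16 arrays called 2 in dispersed cultures, no filter on low signal called 1 in myofiber-associated cultures, and the mean of all probes and the deposited table called 5 and 7 for the difference between cultures. Over all genes these settings called 999, 467, 692 and 3823, respectively, beside 2789, 1114 and 701 in the main fits of these 3 comparisons. Among the other imprinted genes, 75th percentile scaling called 4 in dispersed cultures and 5 between cultures at 72 hr, and the deposited table called 4 in dispersed cultures, 9 in myofiber-associated cultures and 6 for the difference. Normexp called 1, 0 and 1 of them in myofiber-associated cultures, for the difference and at 72 hr, no filter 0 and 0 in the first and second of these, the row block 1 and 0, one fit 7 in the first, the filter on signal well above background 0 and the mean of all probes 2 for the difference.

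In fits added after seeing the data, leaving out the 72-hr myofiber-associated arrays of slide column 1 called 2 members in myofiber-associated cultures, and of the other imprinted genes 0 there, 0 for the difference and 7 at 72 hr, and leaving out column 2 called 5 of the latter for the difference. Changes of sign were limited to values that were not called with all arrays. With each array left out in turn, Meg3 in dispersed cultures ranged from -0.049 (without 48-hr replicate 3) to 0.222, and was at -0.018 without 72-hr replicate 6. Ndn in myofiber-associated cultures ranged from -0.033 (without 48-hr replicate 9) to 0.119 (without 48-hr replicate 10+11; 0.097 without 72-hr replicate 4), with -0.027 without 72-hr replicate 1 and -0.085 without column 1. Plagl1 between cultures at 48 hr ranged from -0.241 (without myofiber-associated replicate 10+11; -0.090 without dispersed replicate 4) to 0.053 (without myofiber-associated replicate 7), with 0.029 without replicate 9, and was at 0.0214 with the mean of all probes. Mest between cultures at 72 hr ranged from -0.511 to 0.0844 (without myofiber-associated replicate 2), with 0.0834 without replicate 4. It was at 0.628 without column 2 and, called, at -1.001 without column 1 (adjusted p = 0.00144). The cause of these shifts was not tested.

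Counts over all genes moved too. In myofiber-associated cultures 1114 genes were called, and 467 with no filter, 570 with the row block and 848 with normexp. The counts there were 5782 with one fit, 3787 in the deposited table, 75 without column 1 and 1955 without column 2. For the difference the counts were 701, and 411 with no filter, 692 with normexp and also with the mean of all probes, and 566 with the row block. They were 635 with the filter on signal well above background, 3823 in the deposited table, 200 without column 1 and 3490 without column 2. In dispersed cultures they were 2789, and 999 with one fit, 3090 with 75th percentile scaling and 3733 in the deposited table. Between cultures at 72 hr they were 6359, and 7098 with 75th percentile scaling, 6372 with normexp and 6394 without column 1. Of the genes called for the difference, 31.4% were above 0, and 43.0% in the deposited table. The number of arrays limits the precision, and the dim probes of H19 and Meg3 could not be read for a change.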
